A study of Mus musculus with 18 samples.

Results

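The YAP, TAZ and TEAD branch of the Hippo pathway was followed in the accessible chromatin of lung endothelial cells (ECs) at the loci of 10 genes: *Yap1*, *Wwtr1* (which encodes TAZ), *Tead1*, *Tead4*, *Vgll4*, *Amotl1*, *Amotl2*, *Lats1*, *Lats2* and *Ankrd1*. Overlapping peaks of the 18 mice (1 bp or more) were joined into consensus regions, and those seen in 2 or more mice were kept. A region was assigned to a member gene when that gene had the nearest transcription start site (TSS) in the mm10 RefSeq annotation, or when the midpoint of the region lay within the gene body. This gave 64 regions of 47338, of which 57 were assigned by the nearest TSS and 7 by the gene body alone. Regions are named by the gene and numbered along its strand, so that *Yap1*-1 is the most upstream region of *Yap1*.

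The lists are ATAC-seq peaks, where the transposase Tn5 inserts adapters into open DNA and sequenced fragments pile up over accessible chromatin. Young mice were 2 months and aged mice 18 months old, and each mouse gave 1 list (Young Sham n = 5, Young Bleo n = 4, Aged Sham n = 4, Aged Bleo n = 5). All were of the FVB strain and of mixed sex, and all carried a Col1α1-GFP reporter, which marks collagen-producing fibroblasts by a collagen promoter. Sham mice received PBS and Bleo mice bleomycin at 1 U/kg into the trachea, which injures the lung and causes fibrosis, and lungs were taken 30 days later. Cells were sorted as CD31+ after CD45+, EpCAM+ and GFP+ cells had been gated out, so that each list is a bulk measurement over all CD31+ cell types of 1 lung. In such a bulk measurement a smaller number of cells with an open region and a less open region per cell cannot be told apart.

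YAP and TAZ are coactivators without a DNA-binding domain that enter the nucleus and act through the TEAD transcription factors, which recognise the core GGAATG. The kinases LATS1 and LATS2 phosphorylate YAP and TAZ and keep them in the cytoplasm, angiomotin-like proteins bind them at cell junctions, and VGLL4 competes with them for TEAD. In endothelium YAP and TAZ are known for their response to flow, stretch and cell contact and for their part in the growth of blood vessels.

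The sequences of 5 regions, each a window of 200 bp around the strongest summit, carry the comparisons below and are printed on the plus strand of mm10, with the TEAD core, or CATTCC where it lies on the other strand, in capitals. *Ankrd1*-1, far upstream of the target gene *Ankrd1*, and *Amotl2*-2, at the *Amotl2* promoter, are shown because both hold the core, the first being a region with a peak in fewer Aged Sham than Young Sham mice and the second a promoter. *Wwtr1*-4, the strongest region inside *Wwtr1* by median percentile, and *Amotl1*-1 and *Tead4*-4, the regions whose rank differed between groups, were added after their values had been seen.
Ankrd1-1, chr19:36227856-36228055: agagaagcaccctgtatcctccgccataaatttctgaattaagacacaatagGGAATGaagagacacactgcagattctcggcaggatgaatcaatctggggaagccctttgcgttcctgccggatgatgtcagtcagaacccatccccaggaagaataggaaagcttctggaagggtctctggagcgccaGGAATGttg
Amotl2-2, chr9:102717570-102717769: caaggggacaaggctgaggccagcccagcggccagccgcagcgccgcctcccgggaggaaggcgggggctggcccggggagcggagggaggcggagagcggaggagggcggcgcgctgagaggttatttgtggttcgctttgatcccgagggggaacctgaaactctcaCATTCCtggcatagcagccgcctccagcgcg
Wwtr1-4, chr3:57516216-57516415: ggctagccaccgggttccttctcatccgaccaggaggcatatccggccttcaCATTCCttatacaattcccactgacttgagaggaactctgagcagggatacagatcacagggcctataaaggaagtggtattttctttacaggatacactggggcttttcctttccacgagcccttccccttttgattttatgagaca
Amotl1-1, chr9:14625145-14625344: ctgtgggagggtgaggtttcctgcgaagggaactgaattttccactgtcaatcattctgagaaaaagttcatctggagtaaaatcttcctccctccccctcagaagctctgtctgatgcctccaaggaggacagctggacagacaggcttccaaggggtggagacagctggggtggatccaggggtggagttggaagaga
Tead4-4, chr6:128296589-128296788: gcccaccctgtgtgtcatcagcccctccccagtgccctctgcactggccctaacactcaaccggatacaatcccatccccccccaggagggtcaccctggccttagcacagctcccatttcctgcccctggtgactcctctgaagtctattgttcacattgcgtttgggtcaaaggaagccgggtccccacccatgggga
The window of *Ankrd1*-1 held 2 TEAD cores, which began at positions 53 and 192 counted from its first base, as well as 1 ERG core CAGGAAG and 1 AP-1 site TGANTCA. The windows of *Amotl2*-2 and *Wwtr1*-4 each held 1 TEAD core, at positions 170 and 53, and no match to the other motifs. None of these letters occurred in the windows of *Amotl1*-1 and *Tead4*-4. The GC content was 49.5% at *Ankrd1*-1, 48.5% at *Wwtr1*-4, 53.0% at *Amotl1*-1, 60.5% at *Tead4*-4 and 70.0% at the promoter region *Amotl2*-2.

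Peaks marked the TSS of 9 of the 10 genes in lung ECs, and *Ankrd1* had none. A region with a peak in all 18 lists lay over the TSS of *Yap1*, *Wwtr1*, *Tead1*, *Tead4*, *Vgll4*, *Amotl2*, *Lats1* and *Lats2*, and the region over the TSS of *Amotl1* had a peak in 17 lists, with Aged Bleo 4 the exception. No list had a peak within 1000 bp of the TSS of *Ankrd1*, and its 4 regions lay 63.5, 88.2, 104.9 and 108.1 kb upstream between genes. A missing peak does not show closed chromatin at this depth, since the lists hold only regions that passed the authors' threshold. Most of the other regions lay within genes: by their midpoint 41 of the 64 were intronic, 11 intergenic, 6 at promoters (1000 bp before to 100 bp after a TSS), 4 in untranslated exons and 2 in coding exons. Promoters made up 9.38% of them and 21.3% of all consensus regions, although 4 of the regions over a TSS (*Yap1*-1, *Tead1*-1, *Tead4*-3 and *Lats2*-3) counted as exonic here because their midpoint lay just inside the gene.

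**Figure D1:**
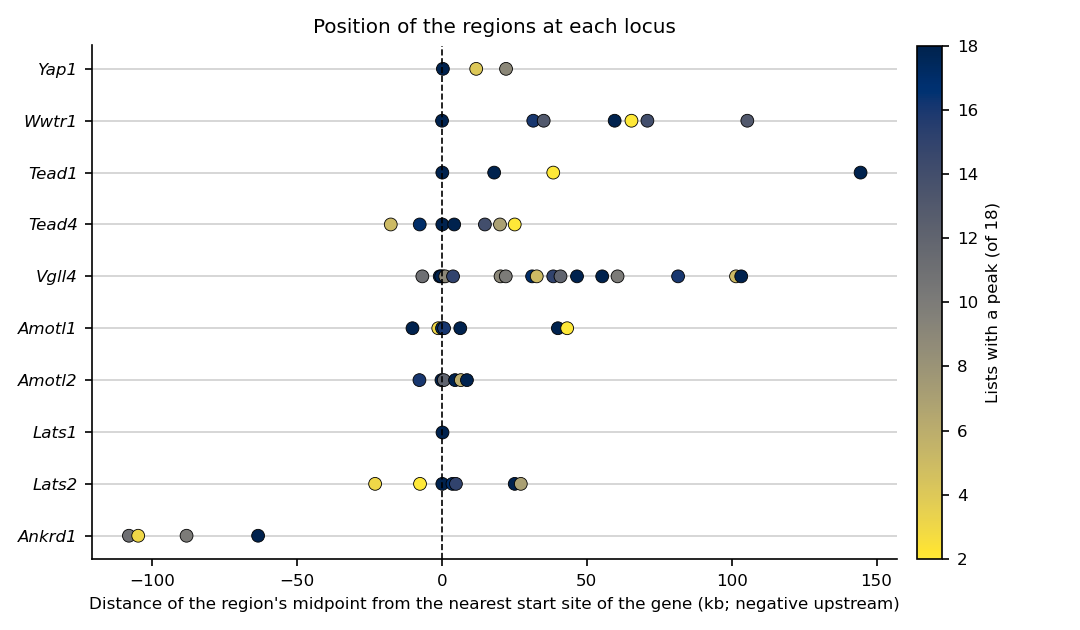
Distance of each of the 64 regions from the nearest TSS of its gene, in kb along the strand of the gene (negative upstream), 1 line per gene, with the colour giving the number of lists of 18 that had a peak there. For every gene but *Ankrd1* the region over a TSS (dashed line) was found in 17 or 18 lists, while regions beside it, such as *Vgll4*-2 and *Amotl2*-3, were found in fewer, and the 4 regions of *Ankrd1* lie 63.5 to 108.1 kb upstream.

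*Vgll4* (chr6:114860628-114969203, minus strand) had 18 regions, 14 of them within its 109 kb, 1 upstream and 3 beyond its 3′ end, and 113 of the 17956 genes with a region had more. *Wwtr1* (chr3:57455644-57575910, minus), *Tead4* (chr6:128227143-128300813, minus), *Amotl1* (chr9:14541966-14615000, minus) and *Lats2* (chr14:57689662-57746123, minus) had 7 regions each. *Amotl2* (chr9:102717804-102733417, plus) had 6 regions in or upstream of its 15.6 kb, *Tead1* (chr7:112679356-112906784, plus) 4 over 227 kb and *Ankrd1* (chr19:36111965-36119844, minus) 4. *Yap1* (chr9:7931999-8004596, minus) had 3 and *Lats1* (chr10:7681209-7716461, plus) 1, which it shares with the divergent gene *Pcmt1*. The median over all genes with a region was 2. The 6 regions in introns of *Wwtr1* are nearer to the TSS of *Gm16016* or *Tm4sf4*, *Tead1*-4 is nearest to *Rassf10*, and *Vgll4*-16 to *Vgll4*-18 lie in introns of the neighbouring autophagy gene *Atg7*, so that the position alone does not tie them to a member gene.

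Of the 64 regions 22 had a peak in every list, or 34.4% against 36.8% of all consensus regions. Outside promoters the share was 31.0% (18 of 58) against 25.4%. Strength was read as the percentile of a peak's fold enrichment within its own list, from 0 for the weakest peak to 100 for the strongest. Over the lists with a peak, the median of the regions' median percentiles was 28.6 against 33.9 over all regions. Fold enrichment is taken over the local background, which is high beside a strong peak, and the number of fragments at the summit was therefore solved from the deposited fold enrichment and P value. *Amotl2*-3 rested on 29 to 77 fragments at its summit but had a median percentile of only 1.08, and *Amotl2*-4 rested on 33 to 141 at a median percentile of 6.47. The same holds for *Tead4*-3 over the *Tead4* TSS, with 28 to 102 fragments at a median percentile of 23.7. Fragments at the summit depend on the depth of the list, and they are given below beside or in place of the percentile.

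**Figure D2:**
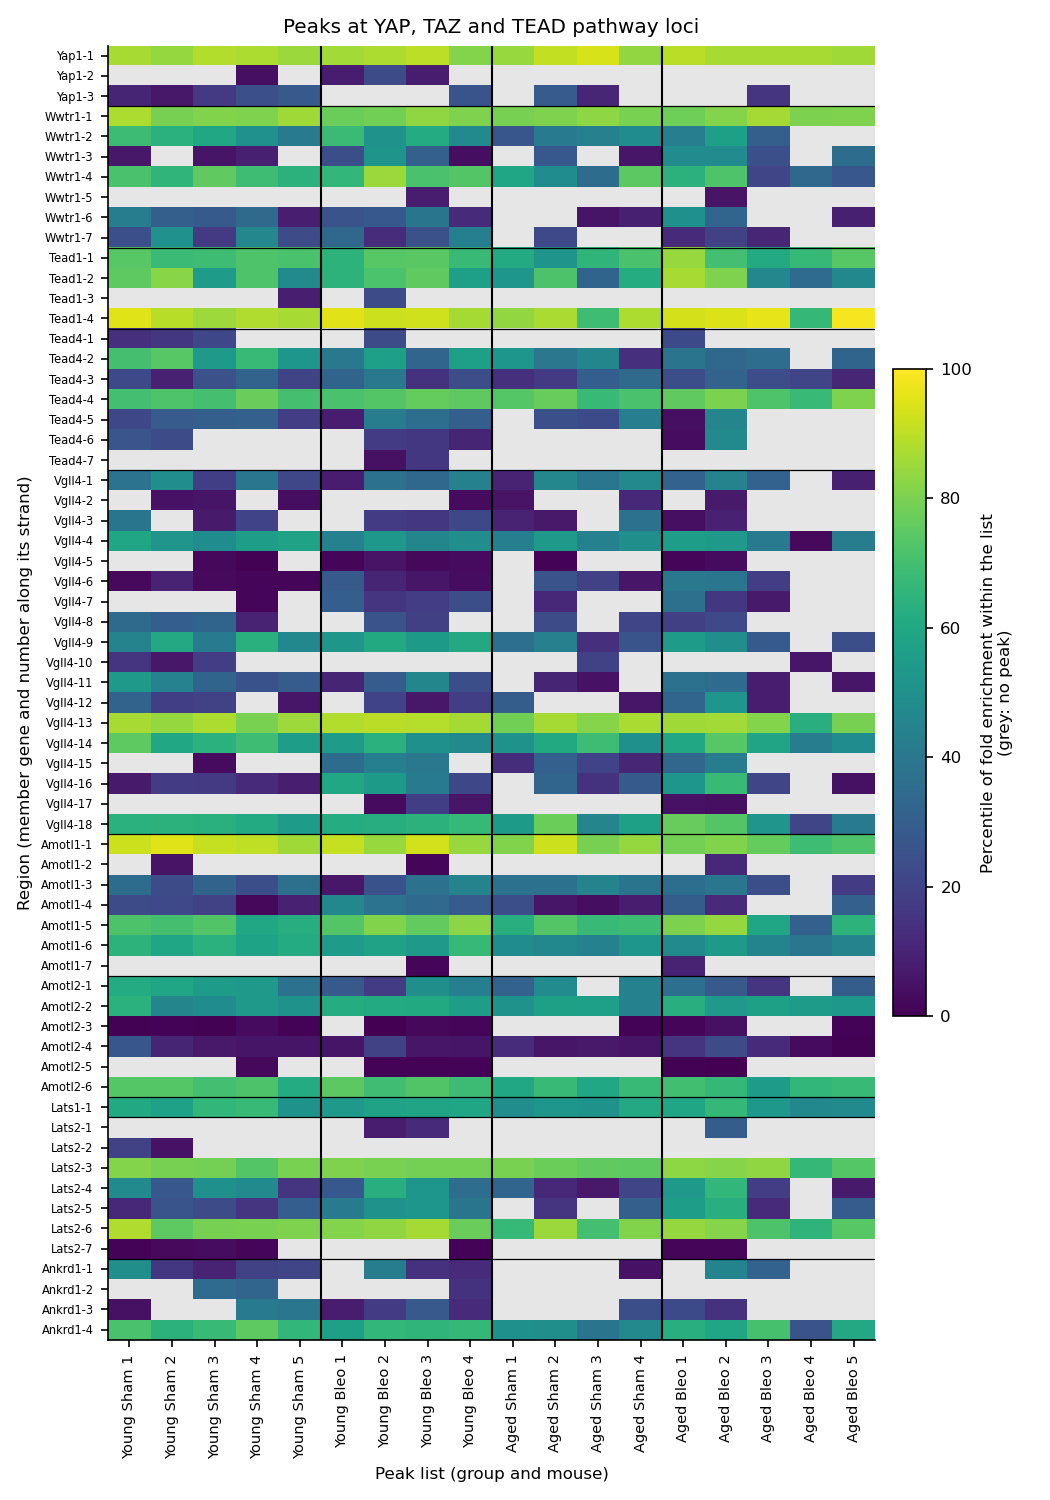
Within-list percentile of fold enrichment (colour, 0 to 100) for the 64 regions (rows, by gene along its strand) in the 18 lists (columns, by group), with grey for no peak. Every region over a TSS except that of *Amotl1* is coloured across all 18 columns, as are some intronic and intergenic regions. The weaker regions are patchy in every group, and Aged Bleo 4 is grey in 41 rows.

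The lists differed in depth, and the aged groups held the shallowest. Lists had 21050 to 40883 peaks, a background of 1.02 to 1.78 fragments and a median of 26 to 35 fragments at a summit, and Aged Bleo 4 had the fewest peaks. A code in the list names was read as the sequencing lane, which no label states, so that every lane given here is a reading of that code. It gives lane 6 for the 5 Aged Bleo mice and Aged Sham 4 and lane 8 for the 5 Young Sham mice and Young Bleo 4. The remaining 3 Young Bleo and 3 Aged Sham mice were in lane 7. No lane held both groups for Aged Sham against Young Sham, Aged Bleo against Young Sham or Aged Bleo against Young Bleo, so that lane and group can hardly be told apart there. A lane term in a fit rests on Aged Sham 4 and Young Bleo 4, the mice that share a lane with another group than the rest of their own. Promoter peaks of *Cdh5*, *Tie1*, *Kdr* and *Erg* were present in all lists and of *Pecam1*, the gene of CD31, in 17, but *Tek* had none. Leukocyte (0 of 4 genes), epithelial (0 of 4) and mesothelial (0 of 2) markers had no promoter peak in any list, *Pdgfra* of the 5 fibroblast and mural markers had one in all 18, and *Lyve1* of the 3 lymphatic markers in 7.

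The pathway regions followed the length of the lists. Young Sham lists held 50, 49, 51, 50 and 44 of the 64 regions, Young Bleo lists 43, 55, 56 and 52, Aged Sham lists 34, 43, 37 and 44, and Aged Bleo lists 52, 55, 39, 23 and 35. The Aged Sham lists were thus at or below the lowest Young Sham list, while Aged Bleo lists ranged from the lowest of all to among the highest. The group means were 76.2% of the pathway regions in Young Sham, 80.5% in Young Bleo, 61.7% in Aged Sham and 63.8% in Aged Bleo, beside 71.9, 75.1, 59.2 and 62.9% of all consensus regions. When every list was cut to its 21050 peaks with the smallest P value, 39 pathway regions remained in at least 2 lists, and the means were 71.8, 73.1, 73.7 and 71.3%, beside 74.3, 74.4, 73.6 and 73.2% of all regions. Cutting to 1 length brings the shares of the lists close together by construction and removes the weaker regions, so that these means do not show whether the weaker regions differ.

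**Figure D3:**
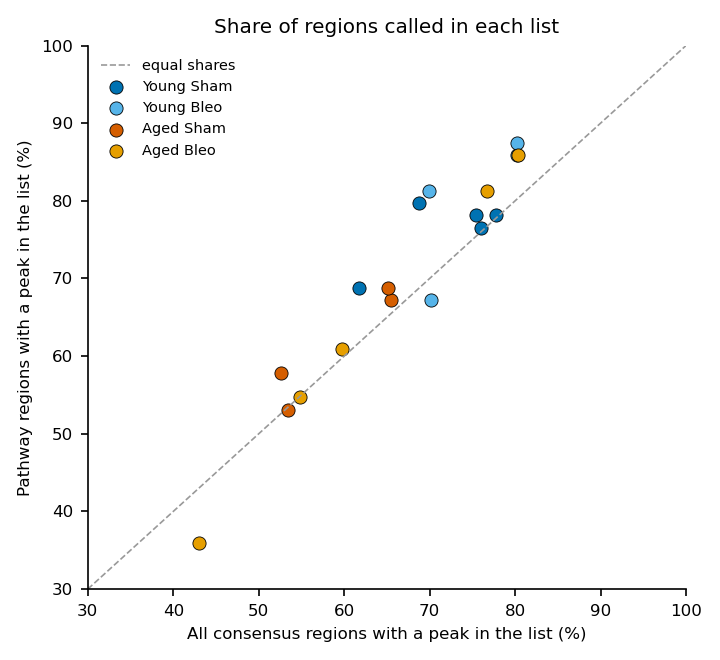
Share of the 64 pathway regions with a peak in a list (vertical axis, %) against the share of all 47338 consensus regions with a peak in the same list (horizontal axis, %), 1 point per mouse coloured by group, with the line of equal shares. Shares of pathway regions run from 35.9% in Aged Bleo 4 to 87.5% in Young Bleo 3 and rise with the shares of all regions, and the points farthest from the line of equal shares are Young Bleo 4 (81.25% against 69.9%) and Young Sham 3 (79.7% against 68.8%) above it, while Aged Bleo 4 (35.9% against 43.0%) lies below.

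Region by region, the groups were compared by the number of mice with a peak, using a two-sided Fisher's exact test over all consensus regions. An unadjusted p of at most 0.05 was taken as a call, since after Benjamini-Hochberg adjustment no region of any gene passed in any comparison (smallest exact p 0.00794, smallest adjusted p 0.786, 0.535, 1, 1 and 1 in the order below). In Aged Sham against Young Sham, 4 of the 64 regions were called in fewer aged mice, where the background over all regions was 4.90%, and 1 in more, with a background of 0.264%. In Young Bleo against Young Sham 1 was called in fewer injured mice (background 1.96%) and 2 in more (3.98%). In Aged Bleo against Young Sham 1 was called in fewer mice (3.01%) and 0 in more (0.201%). In Aged Bleo against Aged Sham 0 were called in either direction (0.410% lower and 0.475% higher). In Aged Bleo against Young Bleo 1 was called in fewer aged mice (2.44%) and 0 in more (0.123%). With 64 regions these counts are near the background and are not a result about the pathway, and the comparisons share control samples, so that they are not independent of each other.

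Counting every region, 27 of the 64 were called in a smaller share of Aged Sham than of Young Sham mice and 3 in a larger share, and 34 in equal shares, where 38.4% of all regions were lower and 10.1% higher. In Young Bleo against Young Sham 11 were lower (17.2%) and 16 higher (25%), where 20.4% of all regions were lower and 27.4% higher. Aged Bleo against Young Sham had 30 lower (46.9%) and 8 higher (12.5%), where 36.7% and 15.2% of all regions were. Aged Bleo had a smaller share than Young Bleo at 39 regions (60.9%, against 45.6% of all regions) and a larger share at 2 (3.125%, against 11.5%). Between the aged groups 15 were lower (23.4%) and 22 higher (34.4%) after bleomycin, where 22.1% and 33.0% of all regions were.

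The 9 regions called in any comparison had a peak in 4 to 13 of the 18 lists, and none was the strongest region of its locus by median percentile or by median fragments. They are described with their genes, and none of the 9 kept its call when the lists were cut to equal length. The cut removes the weakest peaks and left 39 of the 64 regions in at least 2 lists, so that a weak region had little chance to keep a call.

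*Yap1* carried 1 strong region and a pair of weak ones. *Yap1*-1 (chr9:8003584-8004996), which spans the TSS over 1413 bp with its midpoint in a coding exon, rested on 239, 269, 269, 270 and 179 fragments in Young Sham and 199, 241, 293 and 225 in Young Bleo. In aged mice the numbers were 166, 226, 193 and 210 in Aged Sham and 218, 181, 154, 113 and 123 in Aged Bleo. Fragments overlapped between all groups but were fewest in Aged Bleo 4 and 5, whose lists are among the shallowest. Its mean percentile was 86.3 ± 1.86 (SD, n = 5) in Young Sham, 86.4 ± 3.57 (n = 4) in Young Bleo, 88.3 ± 4.90 (n = 4) in Aged Sham and 87.2 ± 1.46 (n = 5) in Aged Bleo, closer together than the mice within a group. Percentiles near the top of the scale leave little room to differ and depend on the length of a list, and differences of rank are given below.

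*Yap1*-3 (chr9:7982139-7982832), in an intron 22.1 kb downstream of the TSS, had a peak in 5 of 5 Young Sham mice, 1 of 4 Young Bleo, 2 of 4 Aged Sham and 1 of 5 Aged Bleo mice. It rested on 11, 13, 14, 16 and 15 fragments in Young Sham, 16 in Young Bleo 4, 14 and 10 in Aged Sham 2 and 3, and 11 in Aged Bleo 3. Every mouse with the code of lane 8 had the peak, the Young Bleo mouse included, and 3 of the 12 in the other lanes did. The difference from Young Sham had an exact p of 0.0476 in Young Bleo and of 0.0476 in Aged Bleo, both against the same 5 Young Sham mice. *Yap1*-2 (chr9:7992684-7992982), 11.8 kb into the same gene, had a peak in Young Sham 4 (10 fragments) and in Young Bleo 1 to 3 (12, 14 and 12 fragments) and in 0 of 9 aged mice. Aged Bleo differed from Young Bleo there with an exact p of 0.0476. The region passed the limit of 2 lists only through the Young Bleo mice, the group where it is high. This p-value therefore cannot support a difference between these groups.

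Counted over the locus, *Yap1* had on average 2.2 called regions in Young Sham, 2 in Young Bleo, 1.5 in Aged Sham and 1.2 in Aged Bleo. The mean was lower in Aged Bleo than in Young Sham (exact permutation p = 0.0397, adjusted p = 0.948 over 17956 genes) and than in Young Bleo (exact permutation p = 0.0476, adjusted p = 1). In these comparisons 4.82% and 4.13% of all loci had fewer called regions at that threshold. No other locus of the 10 was called in them. The region called besides *Yap1*-1 was *Yap1*-3 in all 5 Young Sham mice, and Young Sham 4 also had *Yap1*-2. In Young Bleo it was *Yap1*-2 in mice 1 to 3 and *Yap1*-3 in Young Bleo 4. *Yap1*-3 was found in 1 mouse each of Young Bleo and Aged Bleo. The locus call against Young Bleo thus rests on *Yap1*-2, kept only through Young Bleo, and cannot support a difference between these groups.

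*Wwtr1*, the TAZ gene, carried its strongest region over the TSS. *Wwtr1*-1 (chr3:57575393-57576458) rested on 227, 199, 187, 191 and 160 fragments in Young Sham and 126, 166, 194 and 159 in Young Bleo. The aged groups had 124, 153, 156 and 171 in Aged Sham and 163, 195, 138, 77 and 97 in Aged Bleo. Its percentile was 83.0 ± 3.60 in Young Sham, 80.0 ± 2.51 in Young Bleo, 80.8 ± 1.48 in Aged Sham and 81.4 ± 3.12 in Aged Bleo (SD, n as above). *Wwtr1*-4, intronic and 59.6 kb from the TSS, had a peak in all lists with 51, 43, 51, 40 and 29 fragments in Young Sham and 35, 72, 42 and 43 in Young Bleo. The aged lists gave 24, 21, 15 and 38 in Aged Sham and 35, 50, 12, 14 and 13 in Aged Bleo. Both aged groups overlapped the young ones there, and Aged Bleo mice alone ran from 12 to 50.

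*Wwtr1*-7 (chr3:57470253-57470629), 105 kb into the gene, had a peak in 5 of 5 Young Sham mice (13, 25, 14, 21 and 14 fragments) and 4 of 4 Young Bleo mice (18, 12, 16 and 21). It had one in 1 of 4 Aged Sham mice (13 in Aged Sham 2) and 3 of 5 Aged Bleo mice (12, 12 and 11). All 9 young mice and 4 of the 9 aged mice thus had the peak, and Aged Sham differed from Young Sham with an exact p of 0.0476. The locus had 5.6 called regions in Young Sham, 6.25 in Young Bleo, 4.25 in Aged Sham and 4.8 in Aged Bleo, and none of the 5 comparisons passed an exact permutation p of 0.05.

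*Tead1*, which encodes a DNA-binding partner of YAP and TAZ, had 3 of its 4 regions in all lists. *Tead1*-1 (chr7:112678897-112680085), over the TSS and the 5′ untranslated exon, rested on 67, 80, 70, 80 and 59 fragments in Young Sham and 57, 77, 87 and 75 in Young Bleo. Among aged mice it had 34, 29, 40 and 56 in Aged Sham and 80, 44, 35, 36 and 42 in Aged Bleo. Fragments were fewer in each Aged Sham mouse than in any Young Sham mouse, but the percentile within the lists overlapped, from 51.6 to 71.2 in Aged Sham and from 68.2 to 74.0 in Young Sham. The strongest region of all 64 by median percentile (88.8) was *Tead1*-4 (chr7:112823515-112824126) in an intron 144 kb from the TSS. It rested on 130, 121, 90, 105 and 65 fragments in Young Sham and 124, 127, 140 and 97 in Young Bleo. The numbers were 59, 96, 44 and 98 in Aged Sham and 129, 147, 96, 38 and 111 in Aged Bleo. All groups overlapped, and the locus kept 3 called regions in every aged mouse and 3 or 4 in every young mouse.

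At *Tead4*, the TSS region *Tead4*-3 (chr6:128300300-128301043) rested on 63, 58, 77, 90 and 53 fragments in Young Sham and 74, 102, 72 and 65 in Young Bleo. Aged mice had 39, 55, 58 and 81 in Aged Sham and 71, 90, 47, 31 and 28 in Aged Bleo, with overlap between all groups. The intronic *Tead4*-4 (chr6:128296304-128296988), 4.2 kb downstream of the TSS, was stronger, with 155, 177, 179, 213 and 129 fragments in Young Sham and 148, 196, 213 and 165 in Young Bleo. In aged mice the numbers were 112, 165, 117 and 159 in Aged Sham and 190, 238, 114, 68 and 98 in Aged Bleo. The other 5 regions rested on fewer fragments, with medians of 12 to 20, and were called in 2 to 17 lists, and *Tead4*-7 had a peak in 2 Young Bleo mice alone. The locus had 5 called regions on average in Young Sham, 5.5 in Young Bleo, 3.75 in Aged Sham and 3.8 in Aged Bleo, and no comparison passed an exact permutation p of 0.05.

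*Vgll4*, the gene of the cofactor that competes with YAP and TAZ for TEAD, has 2 TSSs in the annotation. The stronger promoter region, *Vgll4*-4 (chr6:114921679-114922557), at the downstream TSS, rested on 86, 97, 74, 89 and 65 fragments in Young Sham and 48, 62, 58 and 55 in Young Bleo. The aged groups had 36, 62, 43 and 67 in Aged Sham and 64, 67, 34, 13 and 31 in Aged Bleo. Each Young Bleo mouse had fewer fragments there than any Young Sham mouse. The strongest region of the locus was the intronic *Vgll4*-13 (chr6:114874897-114875626), 46.6 kb further downstream, with 187, 194, 177, 160 and 122 fragments in Young Sham and 179, 181, 194 and 153 in Young Bleo. The aged lists gave 94, 138, 95 and 156 in Aged Sham and 177, 182, 99, 46 and 70 in Aged Bleo. It had a mean percentile of 84.9 ± 3.04 in Young Sham, 88.4 ± 1.31 in Young Bleo, 83.5 ± 4.08 in Aged Sham and 79.2 ± 9.49 in Aged Bleo (SD, n = 5, 4, 4 and 5), and the groups overlapped.

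At 3 *Vgll4* regions called in 5 to 10 lists a group had more mice with a peak than Young Sham. *Vgll4*-7 (chr6:114901388-114901759, intron) had a peak in Young Sham 4 (10 fragments), in all 4 Young Bleo mice (17, 15, 18 and 17), in Aged Sham 2 (11) and in Aged Bleo 1 to 3 (21, 15 and 10). Young Bleo differed from Young Sham with an exact p of 0.0476. *Vgll4*-17 (chr6:114820160-114820489), in an intron of *Atg7*, had a peak in 0 Young Sham mice, in Young Bleo 2 to 4 (19, 28 and 21 fragments), in 0 Aged Sham mice and in Aged Bleo 1 and 2 (18 and 21), with the same exact p of 0.0476. *Vgll4*-7 was thus found in 7 of the 9 bleomycin-treated and 2 of the 9 sham mice, and *Vgll4*-17 in 5 and 0 of them. *Vgll4*-17 passed the limit of 2 lists only through bleomycin-treated mice, and both regions were picked by their Young Bleo calls. These pooled counts therefore cannot support a difference between treatments. *Vgll4*-15 (chr6:114861042-114861394), in the 3′ untranslated exon, had a peak in Young Sham 3 (13 fragments), Young Bleo 1 to 3 (20, 25 and 26), all 4 Aged Sham mice (12, 19, 12 and 15) and Aged Bleo 1 and 2 (20 and 28). Of the 64 regions it was the 1 called in more Aged Sham than Young Sham mice (exact p = 0.0476), and all mice of lane 7, young or aged, had it, as did 1 of the 6 mice of lane 8. The locus had 13.2 called regions in Young Sham, 14.75 in Young Bleo, 12 in Aged Sham and 11.4 in Aged Bleo, and ranged from 5 to 17 within Aged Bleo.

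*Amotl1* encodes an angiomotin-like protein of cell junctions. Its TSS region, *Amotl1*-3 (chr9:14614627-14615354), was modest, with 37, 35, 34, 31 and 28 fragments in Young Sham, 21, 27, 40 and 37 in Young Bleo, 27, 30, 26 and 38 in Aged Sham and 31, 32, 20 and 15 in the 4 Aged Bleo mice with the peak. The strongest region of the locus was *Amotl1*-1 (chr9:14624935-14625521), intergenic and 10.2 kb upstream, with 109, 133, 106, 109 and 77 fragments in Young Sham and 91, 74, 105 and 73 in Young Bleo. Among aged mice it had 62, 91, 54 and 72 in Aged Sham and 55, 65, 50, 33 and 35 in Aged Bleo. All 5 Aged Bleo mice were below all 9 young mice, and 2 of them lay within the range of Aged Sham and 3 below it. The locus had 5.2, 5.5, 5 and 4.8 called regions on average in the order of the groups.

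*Amotl2*, the other angiomotin-like gene and itself a known YAP target, carried its promoter region *Amotl2*-2 (chr9:102717191-102718052) in all lists, with 169, 143, 125, 143 and 93 fragments in Young Sham and 127, 170, 152 and 126 in Young Bleo. The numbers were 77, 110, 83 and 114 in Aged Sham and 161, 178, 101, 57 and 76 in Aged Bleo. Its percentile was 52.6 ± 6.90 in Young Sham, 59.8 ± 2.82 in Young Bleo, 52.1 ± 5.95 in Aged Sham and 56.5 ± 3.70 in Aged Bleo (SD, n = 5, 4, 4 and 5), and the groups overlapped. The intronic *Amotl2*-6 (chr9:102726158-102726709), 8.6 kb into the gene, was the strongest of the locus, with 175, 225, 156, 175 and 99 fragments in Young Sham and 130, 179, 167 and 131 in Young Bleo. Aged mice had 86, 131, 79 and 143 in Aged Sham and 156, 192, 78, 69 and 93 in Aged Bleo. There too the groups overlapped.

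*Amotl2*-3 (chr9:102718244-102718541), a shoulder 0.6 kb downstream of the TSS, had a peak in all 5 Young Sham mice (43, 56, 45, 61 and 35 fragments) and in Young Bleo 2 to 4 (39, 51 and 48). The aged mice with the peak were Aged Sham 4 (46) and Aged Bleo 1, 2 and 5 (50, 77 and 29). Aged Sham differed from Young Sham with an exact p of 0.0476, and the 1 Aged Sham mouse with the peak was also the only one with the code of lane 6. The locus had 5.2 called regions in Young Sham and 4 in Aged Sham (exact permutation p = 0.0397, adjusted p = 0.462), beside 5.5 in Young Bleo and 4.8 in Aged Bleo.

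The kinase loci differed in layout. *Lats1* had a single region, *Lats1*-1 (chr10:7680779-7681864), between its TSS and that of *Pcmt1*, with a peak in all lists and 59, 66, 72, 72 and 39 fragments in Young Sham and 52, 55, 70 and 64 in Young Bleo. In aged mice the numbers were 35, 42, 39 and 60 in Aged Sham and 51, 57, 36, 26 and 29 in Aged Bleo. *Lats2* had 7, of which *Lats2*-3 (chr14:57745477-57746483) over the TSS rested on 130, 146, 127, 101 and 95 fragments in Young Sham and 103, 117, 120 and 111 in Young Bleo. The aged groups had 81, 88, 72 and 111 in Aged Sham and 124, 137, 95, 51 and 58 in Aged Bleo. The intronic *Lats2*-6 (chr14:57709078-57709617), 25.1 kb from the nearest TSS, was as strong, with 143, 116, 132, 121 and 87 fragments in Young Sham and 82, 126, 120 and 88 in Young Bleo. The aged lists gave 46, 88, 53 and 99 in Aged Sham and 114, 120, 59, 32 and 52 in Aged Bleo. All groups overlapped at each of these 3 regions.

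*Lats2*-7 (chr14:57707041-57707492), intronic and 27.2 kb from the nearest TSS, had a peak in Young Sham 1 to 4 (22, 29, 33 and 26 fragments), in Young Bleo 4 (19), in 0 Aged Sham mice and in Aged Bleo 1 and 2 (21 and 23). Aged Sham differed from Young Sham with an exact p of 0.0476. Of the 6 mice of lane 8, 5 had the peak, and of the 6 of lane 7, 0 had it. The locus had 5.2 called regions in Young Sham, 4.75 in Young Bleo, 3.5 in Aged Sham and 4.2 in Aged Bleo, and Aged Sham had fewer than Young Sham (exact permutation p = 0.0317, adjusted p = 0.462). The count includes *Lats2*-2, found in Young Sham 1 and 2 alone (12 and 11 fragments). *Lats2*-2 passed the limit of 2 lists only through Young Sham, the group where it is high, so this p-value cannot support a difference. With *Amotl2* the *Lats2* locus was 1 of 2 loci of the 10 with fewer called regions in Aged Sham, where 10% of all loci had fewer. No locus of the 10 was called in Young Bleo against Young Sham or in Aged Bleo against Aged Sham, where 7.60% and 1.13% of all loci were called in either direction. No gene passed after adjustment in any comparison, with smallest adjusted p values of 0.383, 0.401, 0.731, 1 and 1.

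*Ankrd1*, which encodes a muscle and stress-induced ankyrin repeat protein and is a widely used readout of YAP activity, was marked by distal regions alone. *Ankrd1*-1 (chr19:36227635-36228218), the most distal and the one with 2 TEAD cores in its window, had a peak in all 5 Young Sham mice (23, 14, 13, 14 and 15 fragments) and in Young Bleo 2 to 4 (19, 14 and 13). Among aged mice it was found in Aged Sham 4 (10) and in Aged Bleo 2 and 3 (19 and 14). Of the 9 young mice 8 had the peak and of the 9 aged mice 3, and Aged Sham differed from Young Sham with an exact p of 0.0476. *Ankrd1*-3 was called in 3 Young Sham and 4 Young Bleo mice and in 1 Aged Sham and 2 Aged Bleo mice, and *Ankrd1*-2 in 2, 1, 0 and 0. The region called in all lists, *Ankrd1*-4 (chr19:36183100-36183512), rested on 36, 41, 38, 38 and 39 fragments in Young Sham and 29, 36, 40 and 43 in Young Bleo. Among aged mice it had 20, 21, 16 and 21 in Aged Sham and 33, 29, 36, 13 and 27 in Aged Bleo. All 4 Aged Sham mice were below all 9 young mice there, and 2 of the 5 Aged Bleo mice were below them.

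The *Ankrd1* locus had 3 called regions in Young Sham, 3 in Young Bleo, 1.5 in Aged Sham and 1.8 in Aged Bleo, and single mice had 1 to 3 when aged and 2 to 4 when young. The difference of Aged Sham from Young Sham had an exact permutation p of 0.0714 and that of Aged Bleo an exact permutation p of 0.103, so that neither passed. The Aged Sham lists held 25793 to 32220 peaks and the Young Sham lists 30073 to 38747, and *Ankrd1*-1, at 10 to 23 fragments, had no difference left in lists of equal length, where weak peaks are removed. With a -log10 q of at least 5 it had a peak in 5 of 5 Young Sham and 0 of 4 Aged Sham mice (exact p = 0.00794).

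**Figure D4:**
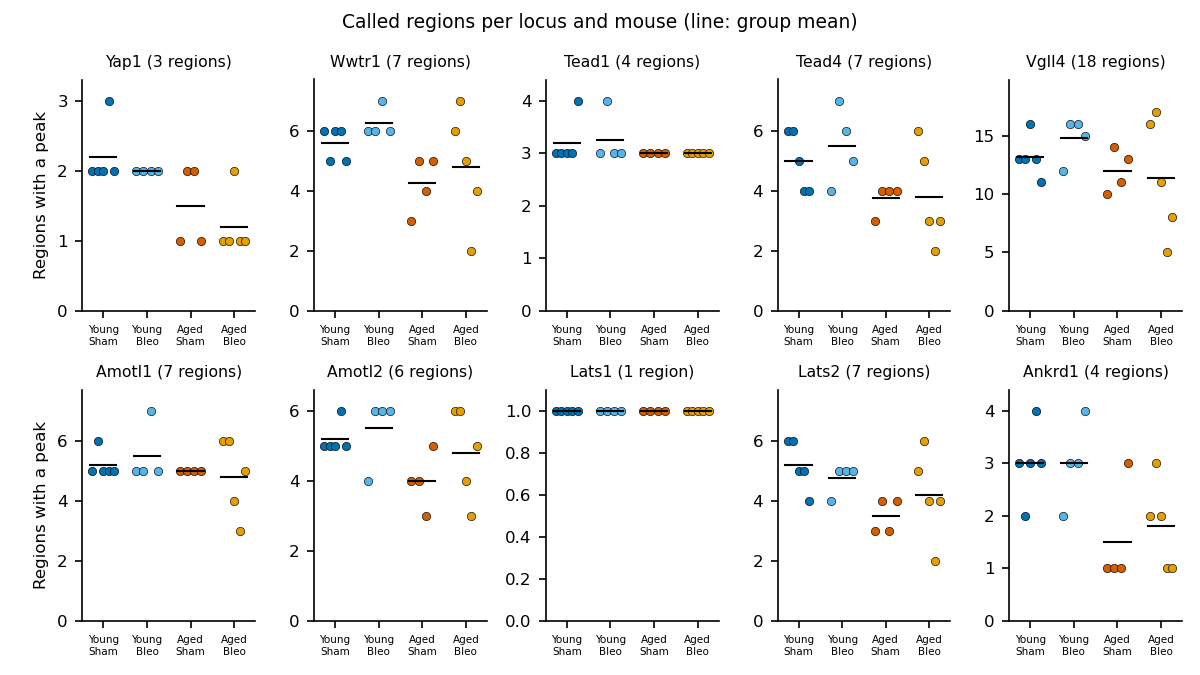
Number of regions with a peak at each of the 10 loci (vertical axis, from 0 to just above the number of regions of the locus) in each mouse, by group, with the group mean as a line. At *Yap1* 4 of 5 Aged Bleo mice had 1 called region where every young mouse had 2 or 3, and at *Ankrd1* 3 of 4 Aged Sham mice had 1. The second region of *Yap1* was *Yap1*-3 in Young Sham but *Yap1*-2 in Young Bleo 1 to 3.

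Strength was compared at the regions with a peak in all lists, 22 of the pathway and 17432 in all, by ranking the fold enrichments of these same regions within each list from 0 to 100 and testing the ranks with limma. Ranks do not depend on the length of a list. In Aged Bleo against Young Sham, 1 of the 22 regions ranked lower, where 4.81% of all regions did, and 1 higher, where 5.75% did. In Aged Sham against Young Sham (1.21% of all regions in either direction), Young Bleo against Young Sham (2.75%), Aged Bleo against Aged Sham (0.344%) and Aged Bleo against Young Bleo (0.155%) 0 of the 22 passed by limma. Of the 22, 2, 2, 1 and 4 had an unadjusted p of at most 0.05, where 15.9, 17.4, 15.9 and 16.96% of all regions did. A count of 2 in 22 is near the background and is no result about the pathway as such.

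*Amotl1*-1 was the region that ranked lower. Its rank was 82.8, 90.0, 83.2, 79.4 and 75.6 in Young Sham, 82.6, 65.3, 84.8 and 69.9 in Young Bleo, 71.5, 85.6, 69.6 and 71.6 in Aged Sham and 55.8, 56.6, 60.5, 62.5 and 57.1 in Aged Bleo. Every Aged Bleo mouse ranked below every mouse of the other groups. The difference of Aged Bleo from Young Sham was -23.7 points (SE 3.99, limma adjusted p = 0.00291), and it stayed between -25.4 and -21.8 with adjusted p values of 0.00185 to 0.00978 when each mouse was left out in turn. Against Aged Sham it was -16.1 points (adjusted p = 0.0887) and against Young Bleo -17.2 points (adjusted p = 0.0794) by limma, which did not pass. With lane as a term in the fit the difference from Young Sham was -27.3 points (SE 11.3, adjusted p = 0.586), a fit in which no region of any gene passed. By rank of fragments it was -18.99 points (adjusted p = 0.000852), -13.9 points against Aged Sham (adjusted p = 0.0167) and -9.97 points against Young Bleo (limma adjusted p = 0.158), the last not passing. The rank of fragments passed for 31% of all regions in Aged Bleo against Young Sham and for 15.1% in Aged Bleo against Aged Sham, in either direction.

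*Tead4*-4 was the region that ranked higher. Its rank was 36.0, 43.0, 44.6, 52.1 and 49.5 in Young Sham, 45.3, 42.5, 48.4 and 51.9 in Young Bleo, 60.7, 57.4, 52.7 and 48.6 in Aged Sham and 49.1, 55.7, 54.4, 60.4 and 70.2 in Aged Bleo. The groups overlapped, and the difference of Aged Bleo from Young Sham was 12.9 points (SE 3.86, limma adjusted p = 0.0431). It lost its call without Young Sham 1, 2 or 3, Young Bleo 1 or 3, or Aged Bleo 2, 4 or 5 (adjusted p up to 0.101), and by rank of fragments it was 0.63 points (adjusted p = 0.854). The fragments at this summit, 129 to 213 in Young Sham and 68 to 238 in Aged Bleo, did not separate the groups.

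*Ankrd1*-4 had the largest difference of rank between the sham groups among the 22 regions. Its rank was 38.6, 29.1, 38.7, 48.2 and 42.5 in Young Sham and 27.5, 17.6, 16.1 and 15.02 in Aged Sham, which did not overlap. It was 23.7, 30.3, 28.3 and 36.6 in Young Bleo and 26.7, 19.7, 51.5, 15.3 and 39.4 in Aged Bleo, and both overlapped Aged Sham. The difference between the sham groups was -20.4 points (SE 6.07) and did not pass after adjustment (limma adjusted p = 0.108), and by rank of -log10 p it was -12.5 points (adjusted p = 0.199). At *Yap1*-1, over the TSS of *Yap1*, the direction depended on the measure. By rank of fold enrichment Aged Bleo was 5.05 points above Young Sham (limma adjusted p = 0.406), and by rank of fragments it was -5.10 points from Young Sham (adjusted p = 0.0203). Against Aged Sham it was -2.90 points by fold enrichment (limma adjusted p = 0.770), -6.25 by fragments (adjusted p = 0.0197) and -6.13 by -log10 p (adjusted p = 0.0448). Between the sham groups, Aged Sham ranked 7.95 points above Young Sham at *Yap1*-1 by fold enrichment (SE 3.96, limma adjusted p = 0.344), which did not pass. *Wwtr1*-4 had the largest difference of rank among the 22 regions in any comparison. Its rank was 36.9, 66.6, 38.2 and 47.96 in Young Bleo and 28.9, 39.7, 3.63, 22.1 and 7.32 in Aged Bleo, which overlapped. The difference of Aged Bleo was -27.1 points from Young Bleo (SE 9.10, limma adjusted p = 0.160) and -19.4 points from Young Sham (SE 8.58, adjusted p = 0.155), so that neither passed. With lane as a term they were -58.9 points (adjusted p = 0.216) and -50.7 points (adjusted p = 0.595) by limma. The response to bleomycin was compared between ages by an interaction term, and the smallest adjusted p over the 22 regions was 0.447 by limma, at *Vgll4*-13.

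**Figure D5:**
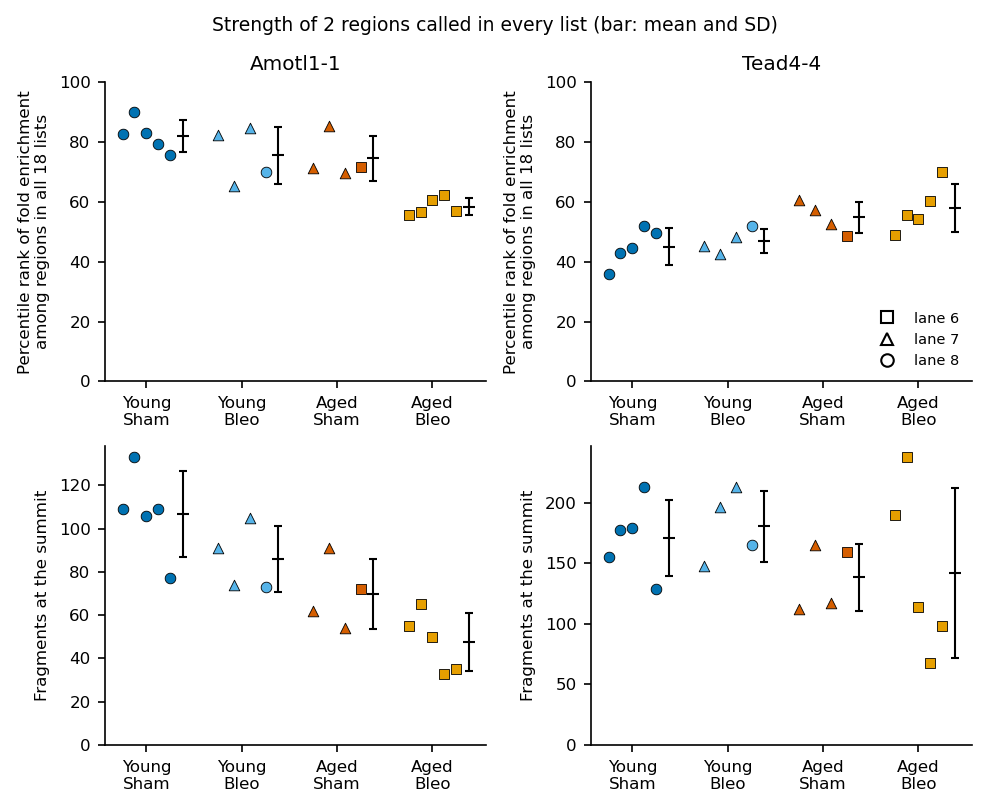
Percentile rank of fold enrichment among the 17432 regions called in all lists (top) and fragments at the summit (bottom) for *Amotl1*-1 and *Tead4*-4 in each mouse, by group (colour) and sequencing lane (marker), with the mean and SD of each group beside the points. *Amotl1*-1 ranks from 55.8 to 62.5 in Aged Bleo and at 65.3 or above in the other mice, and *Tead4*-4 overlaps between groups.

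The TEAD core GGAATG, looked for on either strand of the 200 bp windows, was found in 10 of the 64 regions (15.6%) and in 10.5% of all consensus regions. The regions were *Yap1*-1, *Wwtr1*-2, *Wwtr1*-4, *Tead1*-1, *Tead4*-5, *Vgll4*-10, *Amotl2*-1, *Amotl2*-2, *Lats2*-3 and *Ankrd1*-1, so that each locus but *Amotl1* and *Lats1* had at least 1. *Tead1*-1 and *Ankrd1*-1 held 2 cores. The ERG core CAGGAAG was in 17 regions (26.6% against 19.9%) and TGANTCA, bound by AP-1, in 11 (17.2% against 8.63%), and outside promoters the shares were 27.6% against 22.6% and 18.97% against 10.2%, and for TEAD 15.5% against 11.5%. No test was made of these shares, and a match of letters is not a bound site. Of the 9 regions called in any comparison, *Ankrd1*-1 held a TEAD core.

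The rest of the pathway was read from a list of 44 genes, of which 43 had a region and together 234. In Aged Sham against Young Sham 15 of these regions were called in fewer aged mice (6.41%) and 3 in more, beside the background of 4.90% and 0.264% given above. The 19 target genes, with 121 of the 234 regions, held 11 of the 15 (9.09% of their regions), at *Rbms3* (4 regions), *Asap1* (2), *Ccn1*, *Ccn2*, *Arhgef17*, *Foxf2* and *Dock5*, while the 20 kinases and adaptors, with 106 regions, held 3 (2.83%), at *Wwc2* (2) and *Frmd6*. The remaining 1 was at *Vgll2*, 1 of the 7 regions of the factors and cofactors (14.3%). The 3 regions called in more aged mice were all at target genes (2.48% of their regions), at *Myof*, *Nuak2* and *Ccdc80*, and no test was made between the classes. A *Rbms3* region (chr9:116701707-116702128) and an *Asap1* region (chr15:64174558-64174895) passed the limit of 2 lists only through Young Sham. The *Myof* region passed it only through Aged Sham. These calls, which are part of the shares above, cannot support a difference. *Ccn2*, the connective tissue growth factor gene and a standard YAP target, had a region 4.1 kb upstream of its TSS (chr10:24591193-24591477). It had a peak in 5 of 5 Young Sham, 3 of 4 Young Bleo, 1 of 4 Aged Sham and 5 of 5 Aged Bleo mice, with an exact p of 0.0476 between the sham groups and between the aged groups. A more distal *Ccn2* region, 109 kb upstream (chr10:24486273-24486601), had a peak in 5 of 5, 0 of 4, 2 of 4 and 1 of 5 mice in the same order, fewer than in Young Sham in Young Bleo (exact p = 0.00794) and in Aged Bleo (exact p = 0.0476). *Ccn1*, a target that encodes a matrix protein, had at 21.1 kb downstream of its TSS (chr3:145628708-145629035) a peak in 5, 3, 1 and 3 mice. *Rbms3*, an RNA-binding protein gene, had at 0.6 kb from its TSS (chr9:117251624-117252232) a peak in 5 of 5 Young Sham, 3 of 4 Young Bleo, 0 of 4 Aged Sham and 0 of 5 Aged Bleo mice, with an exact p of 0.00794 for each aged group against Young Sham. No region of the list passed after adjustment.

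In Young Bleo against Young Sham 12 of the 234 regions (5.13%) were called in more injured mice and 8 (3.42%) in fewer, beside 3.98% and 1.96% of all regions. *Fat4*, an atypical cadherin upstream of the pathway, held 5 of the 12 among its 18 regions. At 65.8 kb from its TSS (chr3:38952512-38952989) 0 of 5 Young Sham, 4 of 4 Young Bleo, 0 of 4 Aged Sham and 2 of 5 Aged Bleo mice had a peak (exact p = 0.00794). The other 4 *Fat4* regions had a peak in at most 1 list outside Young Bleo. They passed the limit of 2 lists only through this group, where they are high, and their calls cannot support a difference. *Frmd6*, which encodes a FERM domain protein upstream of the kinases, held 3 of the 8 that were lower, and at 21.9 kb upstream (chr12:70803428-70803881) 5, 0, 1 and 1 mice had a peak. In Aged Bleo against Young Sham 9 regions were lower (3.85%, against 3.01% of all regions) and 1 higher (0.427% against 0.201%). Aged Bleo against Aged Sham gave 4 lower and 4 higher (1.71% each, against 0.410% and 0.475%), and Aged Bleo against Young Bleo 5 lower (2.14% against 2.44%) and 0 higher. The counts of these comparisons also include the *Rbms3*, *Asap1* and *Myof* regions kept only through 1 group, named above. The *Asap1* region chr15:64223479-64223749, lower in Aged Bleo than in Aged Sham, was kept only through Aged Sham. None of these calls can support a difference. *Ajuba*, a LIM protein gene whose product restrains the LATS kinases, had at 1.8 kb from its TSS (chr14:54575677-54575974) a peak in 5, 3, 3 and 0 mice and was called in all 3 comparisons of Aged Bleo. Its median percentile was 18.5.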

How the data were processed

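ATAC-seq peak lists of lung ECs from 18 mice were used, with groups and replicate numbers from the labels and lanes read from a code in the list names, whose meaning no label states. According to the submitters' processing notes and the study's methods, the authors aligned the reads to mm10 with BWA and ran MACS2 on every sample separately, with an FDR cutoff of 1%. The deposited fold enrichment is a ratio to the local background within that library, the deposited -log10 p-value and -log10 q-value are those of the authors' peak calling, the deposited score (a signal that rescales the q-value) was not used, and the deposited summit offset, a distance in bp, gave the summit position. None is scaled between libraries. The lists hold no read counts, so the study's own test on counts could not be used.

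Overlapping peaks of all autosomes and of X and Y were merged (19 mitochondrial peaks were left out) and annotated with 45756 RefSeq transcripts of GRCm38.p6, which has the mm10 coordinates. Fragments at a summit and the expected number were solved from fold enrichment and -log10 p, which gave whole fragments within a tolerance of 0.001 in -log10 p for 99.95% or more of each list. Lists held 21050 to 40883 peaks, and the most frequent expected number in a list, 1.02 to 1.78 fragments, is the background and the measure of depth. Nothing says that lists share a batch beyond the lane.

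Presence of a peak was compared per region by Fisher's exact test (two-sided), called regions per locus with a two-sided exact permutation test over all genes with a region, and the rank of fold enrichment with limma in 1 fit of the 4 groups, with Benjamini-Hochberg adjustment over all features tested. The limma step was tested on simulated data first. Each list comes from 1 mouse, and p-values measure the spread between mice. The 10 genes, the list of 44 pathway genes and the tests were chosen with earlier results of these data known. Regions were described in every mouse if they were the strongest promoter region or the strongest other region of a member, were called by Fisher's test in any of 5 comparisons, or passed limma, and regions over a TSS were added after their values had been seen. Alternatives were a -log10 q or a fold enrichment of at least 5, lists of equal length, regions in at least 3 lists, peaks covering 50% of a region, NM transcripts or autosomes only, log2 or -log10 p in place of rank, a replicate block, each mouse left out and, added after seeing the data, fragment ranks and a lane term. Promoter and sequence windows are from RefSeq and the mm10 sequence. Python 3.11.15, numpy 2.4.6, scipy 1.17.1, pandas 2.3.3, matplotlib 3.10.9, R 4.3.3 and limma 3.58.1 were used.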

Additional observations from a re-analysis of the deposited data

Results flagged for a closer look

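Within groups of 4 or 5 mice, a mouse was picked out when its gap to the nearest other mouse took up most of the range of its group (Dixon's criterion). Of 128 groups looked at, 88 of ranks and 40 of locus counts, 16 had such a mouse, and chance flags about 1 in 20 groups. Locus counts are small whole numbers, where 1 mouse that differs by a single region from equal others always meets the criterion.

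Among ranks of fold enrichment, *Tead1*-4 stood at 54.2 in Aged Sham 3 and at 75.7 to 77.7 in the other Aged Sham mice. *Amotl1*-1 stood at 85.6 in Aged Sham 2 and at 69.6 to 71.6 in the others, which is the Aged Sham mouse nearest to Young Sham at this region. Aged Bleo 4, the shortest list, stood apart at *Tead4*-3 with 12.05 against 2.16 to 4.36 and at *Vgll4*-13 with 55.4 against 67.8 to 69.7.

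Among the counts of called regions, 1 mouse had more than the others of its group in 9 cases. Young Sham 4 had 3 at *Yap1* (others 2) and 6 at *Amotl2* (others 5), Young Sham 2 had 6 at *Amotl1* (others 5), and Young Sham 5 had 4 at *Tead1* (others 3). Young Bleo 3 had 7 at *Wwtr1* (others 6) and 7 at *Amotl1* (others 5), and Young Bleo 2 had 4 at *Tead1* (others 3). Aged Bleo 3 had 2 at *Yap1* (others 1), which is the *Yap1*-3 peak, and Aged Sham 4 had 3 at *Ankrd1* (others 1). Fewer than the others were the counts of Young Bleo 1 at *Amotl2*, 4 against 6, and at *Lats2*, 4 against 5, and of Aged Sham 1 at *Tead4*, 3 against 4.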

How the results depend on the processing

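The counts of pathway regions rest on 1 mouse more or less in groups of 4 or 5, at a depth where a weak peak holds 10 to 20 fragments. None of the 10 differences in presence, 4 in locus counts and 2 in rank that were called at member loci turned its direction under the alternatives run for it. The direction of *Yap1*-1, which was not called by rank of fold enrichment, turned by rank of fragments (above), and the named regions of other pathway genes were not run. For the 16 called differences, 93 of 151 settings for differences in presence, 28 of 45 for locus counts and 13 of 48 for ranks ended the call, and the cause was not tested. Leaving out 1 mouse at a time gave 0 to 2 called regions in Aged Sham against Young Sham (5 with all mice), 0 to 1 in Young Bleo against Young Sham (3), 1 to 3 in Aged Bleo against Young Sham (1), 0 in Aged Bleo against Aged Sham (0) and 0 to 1 in Aged Bleo against Young Bleo (1), in part because smaller groups allow fewer calls. The share of all regions is not given for these fits, so the counts show only how the calls depend on single mice. Percentages in brackets are the shares of all regions called under the same setting. Lists of equal length gave 1 in Aged Sham against Young Sham (2.92%), 1 in Aged Bleo against Aged Sham (1.48%) and 0 in Aged Bleo against Young Bleo (1.74%). A -log10 q of at least 5 gave 7 in Aged Sham against Young Sham (5.42%), 6 in Young Bleo against Young Sham (6.28%), 2 in Aged Bleo against Young Sham (3.24%) and 2 in Aged Bleo against Young Bleo (2.90%). A fold enrichment of at least 5 gave 2 in Aged Bleo against Young Sham (2.86%) and 0 in Aged Bleo against Young Bleo (2.28%), and peaks covering 50% of a region gave 2 in Aged Bleo against Young Sham (5.94%), 2 in Aged Bleo against Aged Sham (1.17%) and 7 in Aged Bleo against Young Bleo (5.69%). Loci called numbered 0 to 2 in Aged Sham against Young Sham (2 with all mice), 1 to 2 in Aged Bleo against Young Sham (1) and 0 to 1 in Aged Bleo against Young Bleo (1) without 1 mouse, 0, 0 and 0 with lists of equal length, which gave 1 in Young Bleo against Young Sham (0), and 4 in Aged Sham against Young Sham with a -log10 q of at least 5. No share of all loci is given for these settings, so a rise or fall of these counts cannot be set against its background. Regions with a changed rank in Aged Bleo against Young Sham numbered 2 (10.6% of all regions), and 1 by log2 fold enrichment (10.8%), 4 by fragments (31.04%), 0 with a lane term and 1 to 2 without 1 mouse. By -log10 p 1 (11.8% of all regions) and by fragments 4 (15.1%) passed in Young Bleo against Young Sham, and 2 by each (11.5 and 15.1%) in Aged Bleo against Aged Sham. Same-numbered mice did not deviate together (5 of 25 pairs with a correlation over 0.1, from -0.193 to 0.335, median 0.0317), so that the numbers do not pair them. A replicate block left the pathway counts as they were in all 5 comparisons, at 2 in Aged Bleo against Young Sham and 0 in the others.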

Other observations

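With lists cut to equal length other pathway regions were called, each at an unadjusted exact p. *Amotl2*-1, the intergenic region 7.8 kb upstream of *Amotl2* with a TEAD core and an ERG core in its window, then had a peak in 5 of 5 Young Sham and 0 of 4 Young Bleo mice (Fisher's exact p = 0.00794) and in 1 of 5 Aged Bleo mice (exact p = 0.0476). In the full lists 16 of 18 mice had this peak. *Amotl1*-4 and *Lats2*-5 had a peak in 3 of 4 Young Bleo and 0 of 5 Young Sham mice, *Vgll4*-6 in 3 of 4 Aged Sham and 0 of 5 Young Sham mice, and *Vgll4*-1 at the upstream promoter in 0 of 5 Aged Bleo and 3 of 4 Aged Sham mice (exact p = 0.0476 each). With a -log10 q of at least 5, *Ankrd1*-1 had a peak in 5 of 5 Young Sham and 0 of 4 Aged Sham mice, *Wwtr1*-6 likewise in 5 and 0, and *Vgll4*-15 in 0 of 5 and 4 of 4 (exact p = 0.00794 each).

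Ranked by fragments at the summit in place of fold enrichment, 4 of the 22 regions passed limma in Young Bleo against Young Sham, where 15.1% of all regions did. *Wwtr1*-1 (-6.70 points, limma adjusted p = 0.0357) and *Vgll4*-14 (-14.6 points, adjusted p = 0.0413) were lower, and *Amotl1*-5 was higher (13.95 points, adjusted p = 0.04497). The downstream *Vgll4* promoter region *Vgll4*-4 stood lower than in Young Sham in Young Bleo (-16.5 points, limma adjusted p = 0.0281) and in Aged Bleo (-19.2 points, limma adjusted p = 0.0048), where 31.04% of all regions passed. Its mean rank by fold enrichment was 18.5 ± 6.18 (SD, n = 5) in Young Sham, 12.003 ± 2.62 (n = 4) in Young Bleo, 20.1 ± 1.98 (n = 4) in Aged Sham and 12.8 ± 6.88 (n = 5) in Aged Bleo, a difference that limma did not call. This alternative was added after seeing the data, and both comparisons share the Young Sham mice.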
